A study of Mus musculus with 8 samples.

Results

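A set of 10 inflammatory genes was followed in cardiac macrophages of the mouse, out of the 24516 genes in the count table. They were taken by symbol and are the cytokine genes Il1b, Il1a, Tnf, Il6 and Il10, the CXC chemokine genes Cxcl1, Cxcl2, Cxcl10 and Cxcl16, and Ptgs2, which encodes the inducible cyclooxygenase of prostaglandin synthesis. All 10 were in the table and 8 passed the filter on low counts; Tnf and Il6 did not. Endocardially derived macrophages (EcTM) were compared with cardiac macrophages without that origin (non-EcTM), with 4 libraries in each group. Hearts of C57BL/6 mice were taken at postnatal day 28 and both populations were sorted by flow cytometry, and all mice carried 1 Nfatc1Cre allele and 1 Rosa26 Tomato reporter allele, so that the non-EcTM cells came from the same genotype. Endocardial cells express the transcription factor Nfatc1, and the reporter marks cells in which Cre has acted together with their descendants. E591, E592, E604 and E606 were the EcTM libraries, N591, N592, N604 and N606 those of non-EcTM, and equal numbers were treated as pairs. Whether a number stands for 1 animal is not in the labels, so the p-values measure the spread between these libraries.

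Interleukin 1 alpha and beta act through 1 shared receptor, and the beta form is made as a precursor that inflammasome-activated caspase 1 cleaves. Tumour necrosis factor and interleukin 6 act on nearby cells and on the liver, while interleukin 10 restrains macrophage activation. CXCL1 and CXCL2 attract neutrophils in the mouse, CXCL10 is induced by interferon and attracts T cells, and CXCL16 is a membrane-anchored chemokine that also binds oxidised lipoprotein. Many of these genes are induced through the transcription factor NF-kB, and their transcripts are kept short-lived by proteins that bind AU-rich stretches.

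The promoters shown are those of the neutrophil chemokines Cxcl1 and Cxcl2 and of Il1b, which were called between numbers as described below, and of Cxcl10, the 1 promoter of the set with the interferon letters. RefSeq promoters of GRCm38.p6, from 250 bases before to 50 after the start, were found for 8 of the 10 genes. They were searched for a form of the NF-kB site (GGG, any 2 letters, TT, any 1 letter, CC) and a core of the interferon response element (GAAA, any 2 letters, GAAA) on both strands, and for TATAAA on the sense strand. The letters were chosen after the sequences had been read, and no match of 1 motif overlapped a match of another. Capitals mark all matches to these letters, and other forms of the sites were not searched. Cxcl1 lies on the plus strand at chr5:90890995-90891294, Cxcl2 on the plus strand at chr5:90903649-90903948, Il1b on the minus strand at chr2:129371090-129371389 and Cxcl10 on the minus strand at chr5:92348840-92349139.
Cxcl1: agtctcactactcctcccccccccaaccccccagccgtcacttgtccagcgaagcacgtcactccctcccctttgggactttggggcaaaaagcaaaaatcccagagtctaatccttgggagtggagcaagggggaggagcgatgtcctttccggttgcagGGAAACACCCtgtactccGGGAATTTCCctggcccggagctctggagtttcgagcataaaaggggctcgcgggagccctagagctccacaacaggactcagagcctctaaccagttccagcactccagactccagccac
Cxcl2: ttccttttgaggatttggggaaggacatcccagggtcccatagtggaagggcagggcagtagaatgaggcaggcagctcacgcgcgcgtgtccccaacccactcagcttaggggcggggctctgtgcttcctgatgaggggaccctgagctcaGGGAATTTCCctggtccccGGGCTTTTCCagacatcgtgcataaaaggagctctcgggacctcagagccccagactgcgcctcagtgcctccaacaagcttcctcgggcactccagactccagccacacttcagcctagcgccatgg
Il1b: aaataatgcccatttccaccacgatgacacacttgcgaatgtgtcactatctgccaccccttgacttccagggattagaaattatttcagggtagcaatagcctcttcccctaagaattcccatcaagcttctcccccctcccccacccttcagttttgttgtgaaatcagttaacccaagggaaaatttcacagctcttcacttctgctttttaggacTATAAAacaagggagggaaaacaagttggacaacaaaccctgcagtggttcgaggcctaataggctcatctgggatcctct
Cxcl10: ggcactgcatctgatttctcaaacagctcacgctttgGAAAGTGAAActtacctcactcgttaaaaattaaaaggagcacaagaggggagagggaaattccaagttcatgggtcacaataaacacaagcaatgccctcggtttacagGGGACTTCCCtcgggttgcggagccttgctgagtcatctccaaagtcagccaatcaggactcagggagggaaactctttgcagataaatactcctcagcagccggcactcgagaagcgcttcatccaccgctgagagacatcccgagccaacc

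The NF-kB letters were present in 4 of the 8 promoters, those of Cxcl1, Cxcl2, Cxcl10 and Il6, and in 4.8% of all 32817 promoter windows. Cxcl1 and Cxcl2, whose annotated genes are 10777 bases apart, both hold GGGAATTTCC, starting 71 bases before the start of Cxcl1 and 97 bases before that of Cxcl2. Cxcl10 holds GGGACTTCCC starting 103 bases before its start and also the interferon letters, which 3.43% of all windows hold. TATAAA was found in Il1a, Il1b and Tnf, starting 32, 31 and 29 bases before the start, and in 8.32% of all windows. A match is a description of the letters and not evidence of a bound site. Because the letters were chosen after these sequences had been read, the shares do not test whether the set differs from other promoters.

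A second feature, held by part of the set, was sought in the transcripts. The AU-rich nonamer TTATTTATT, read on the transcript strand, was counted after the stop codon of the longest coding GENCODE transcript of each gene. It occurs in 4 of the 10 genes, with 5 matches in Tnf, 4 in Cxcl2, 2 in Cxcl1 and 1 in Ptgs2, overlapping matches included. Of 7251 other tested genes 7.93% hold the nonamer. The 10 genes include Tnf and Il6, which were not tested, and the share does not test whether the set differs from other genes. The shorter ATTTA was found after the stop codon in each of the 10 genes, from 2 matches in Cxcl16 to 14 in Ptgs2. Il6, Il10 and Il1b, without the nonamer, had 10, 6 and 4 matches of ATTTA. Its frequency in other genes was not summarised. The untranslated end had a median length of 1048.5 bases in the 10 genes and 1183 bases in the others. The first match of each gene is printed with 8 bases on either side and the nonamer in capitals, at chr5:90892617-90892641 in Cxcl1, chr5:90905318-90905342 in Cxcl2, chr1:150105792-150105816 in Ptgs2 and chr17:35199691-35199715 on the minus strand in Tnf (GRCm38).
Cxcl1: ttatgtatTTATTTATTccacaaag
Cxcl2: gagttcacTTATTTATTtatctatg
Ptgs2: gaccatatTTATTTATTtatgtgaa
Tnf: tgcacttaTTATTTATTatttattt

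Counts summed to 2152425 to 2576407 per library in EcTM and 2281657 to 2937464 in non-EcTM. Levels are given as CPM, the counts relative to each library's TMM-scaled total, and 3 counts correspond to 0.99 to 1.43 CPM, a limit that covers counting error alone. Macrophage markers were abundant in both groups, with 12 of 13 tested and a summed level of 30839 to 31437 CPM in EcTM, against 28685 to 31111 CPM in non-EcTM; Lyz2, Csf1r and Mrc1 averaged 5854, 5967 and 5329 CPM in EcTM, against 5811, 5582 and 5351 CPM in non-EcTM, and Itgam was at 0 in all 8 libraries. Xist was at 1 count in E592 and 8 in N592, against 935 to 1682 elsewhere, and Y-linked Ddx3y at 260 and 307, against 1 to 7, so sex went with the number. N591 stood apart by its endothelial transcripts, and its values are given below beside the marker lists. At 0 in every library were 41.6% of the genes. Protein-coding genes with 1 curated RefSeq transcript had a median total of 18 counts, against 7 for genes with 2 and 7 with at least 3. Their shares at 0 were closer, at 36.6% with 1 transcript, 39.2% with 2 and 38.1% with at least 3. Of the 10 genes Tnf and Il6 have 2 curated transcripts and Cxcl16 has 4, and whether this lowers their counts was not tested. Nfatc1, the gene whose allele carries Cre, had 0 counts in all 8 libraries.

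Il1b, the inflammasome-dependent cytokine, was abundant in every library. It stood at 979, 1110, 525 and 923 CPM in E591, E592, E604 and E606, and at 766, 802, 494 and 856 CPM in N591, N592, N604 and N606. E604 and N604 were the lowest libraries of their groups, EcTM was the higher library in 4 of 4 pairs, and the groups overlapped. The mean was 884 ± 252 CPM in EcTM, against 729 ± 161 CPM in non-EcTM (SD, n = 4 each). With the number as a block, the log2 fold change was 0.26 ± 0.08 (SE, with a 95% interval of 0.09 to 0.42), or 1.19-fold, with an unadjusted p of 0.00364 and an adjusted p of 0.650 in edgeR's quasi-likelihood test. The pair log2 ratios of Il1b alone gave an SE of 0.093, above the 0.079 of the fit. Such a pair SE was above that of the fit in 4 of the 8 tested genes and not in the others. The gene (Entrez 16176) lies on chromosome 2 from 129364569 to 129371164 in GRCm38 and is overlapped on the other strand by Il1bos, which had 159 counts in all against 15775 for Il1b; the strand setting of the counting is not given in the sources used here.

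Il1a, the neighbour of Il1b at a distance of 54382 bases, encodes the form of interleukin 1 that is active without inflammasome cleavage. Its levels were 109, 63.0, 101 and 107 CPM in E591, E592, E604 and E606, and 63.5, 45.4, 88.1 and 142 CPM in N591, N592, N604 and N606. EcTM was higher in 3 of 4 pairs and lower in pair E606/N606, and E592 and N592 were lowest in their groups. Its log2 fold change was 0.25 ± 0.19 (95% interval -0.15 to 0.65) with an adjusted p of 0.964. The 4 pair log2 ratios ran from -0.41 to 0.77, and their own SE was 0.25. Without pair E591/N591 the log2 fold change of Il1a was 0.068, and without pair E606/N606 it was 0.48. The gene on the other strand, Gm14023, had 367 counts in all, against 1778 for Il1a.

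Tnf, the gene of tumour necrosis factor, was close to the detection limit. It had 0, 1, 15 and 6 counts in E591, E592, E604 and E606, and 13, 20, 3 and 8 counts in N591, N592, N604 and N606, so that EcTM had 22 in all and non-EcTM 44. The order of the groups differed between pairs, with more counts in E604 than in N604 and fewer in EcTM in the other pairs. Il6 had 0 counts in all 4 EcTM libraries and in N591, N592 and N604, and 2 counts in N606. At this depth Il6 was not detectable in EcTM above 3 counts per library. An effect of the 2 curated transcripts of Tnf and of Il6 on these counts was not tested.

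Il10 encodes the anti-inflammatory cytokine of the set. It was measured at 15.7, 24.6, 13.6 and 31.2 CPM in E591, E592, E604 and E606, and at 15.1, 19.2, 20.5 and 27.4 CPM in N591, N592, N604 and N606. The ranges of the groups overlapped widely, and E606 and N606 were highest in theirs. The log2 fold change was 0.01 ± 0.36 (adjusted p 0.998), and its 95% interval of -0.74 to 0.76 corresponds to 0.600 to 1.70 of the non-EcTM level.

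Cxcl1, a neutrophil chemokine, had the largest fold change of the 8 tested genes in the paired edgeR fit. Its levels were 159, 198, 110 and 181 CPM in E591, E592, E604 and E606, and 70.3, 142, 78.9 and 164 CPM in N591, N592, N604 and N606. EcTM was higher in 4 of 4 pairs, with log2 ratios of 1.17, 0.48, 0.47 and 0.14 in the order of the libraries, and the groups overlapped. The mean was 162 ± 38.3 CPM in EcTM, against 114 ± 46.3 CPM in non-EcTM (SD, n = 4 each). The log2 fold change was 0.56 ± 0.16 (95% interval 0.23 to 0.88), or 1.47-fold, with an unadjusted p of 0.00183 and an adjusted p of 0.524. The pair ratios alone gave an SE of 0.22, above that of the fit. Without pair E591/N591 the log2 fold change was 0.36 and the adjusted p 0.909, which moves it by over 1.5 times.

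Cxcl2, next to Cxcl1 on chromosome 5 and a ligand of the same receptor, had nearly equal means of 910 ± 161 CPM in EcTM, against 892 ± 182 CPM in non-EcTM (SD, n = 4 each). It stood at 890, 846, 765 and 1138 CPM in E591, E592, E604 and E606, and at 803, 989, 686 and 1091 CPM in N591, N592, N604 and N606. E606 and N606 were highest and E604 and N604 lowest in their groups. Its log2 fold change was 0.04 ± 0.08 (95% interval -0.12 to 0.19) with an adjusted p of 0.990. The ends of this interval correspond to 0.918 and 1.14 of the non-EcTM level. The intervals of Cxcl1 and Cxcl2 do not overlap, but the difference between the genes was not tested.

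Cxcl10, the interferon-induced chemokine of the set, was less abundant and had 14.3, 20.999, 49.1 and 24.5 CPM in E591, E592, E604 and E606, and 17.5, 15.7, 48.0 and 28.7 CPM in N591, N592, N604 and N606. E604 and N604 were the highest libraries, the reverse of their place for Il1b. The log2 fold change between groups was -0.02 ± 0.31 (95% interval -0.66 to 0.63) with an adjusted p of 0.998.

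Cxcl16, the membrane-anchored chemokine, varied least between libraries among the chemokines. It stood at 643, 742, 581 and 738 CPM in E591, E592, E604 and E606, and at 572, 729, 562 and 632 CPM in N591, N592, N604 and N606. EcTM was higher in 4 of 4 pairs by small ratios, with a log2 fold change of 0.12 ± 0.08 (95% interval -0.05 to 0.28) and an adjusted p of 0.956. Zmynd15 on the other strand had 1422 counts in all, against 12710 for Cxcl16, and its share in these counts cannot be told apart without the strand setting.

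Ptgs2 (COX-2), which makes the precursor of the prostaglandins, had 85.3, 88.0, 78.5 and 81.3 CPM in E591, E592, E604 and E606, and 109, 102, 92.9 and 69.3 CPM in N591, N592, N604 and N606. It was lower in EcTM in 3 of 4 pairs and higher in pair E606/N606. The SD was 4.20 CPM in EcTM, against 17.4 CPM in non-EcTM, around means of 83.3 CPM in EcTM, against 93.4 CPM in non-EcTM. The log2 fold change was -0.15 ± 0.18 (95% interval -0.51 to 0.22) with an adjusted p of 0.976.

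**Figure D1:**
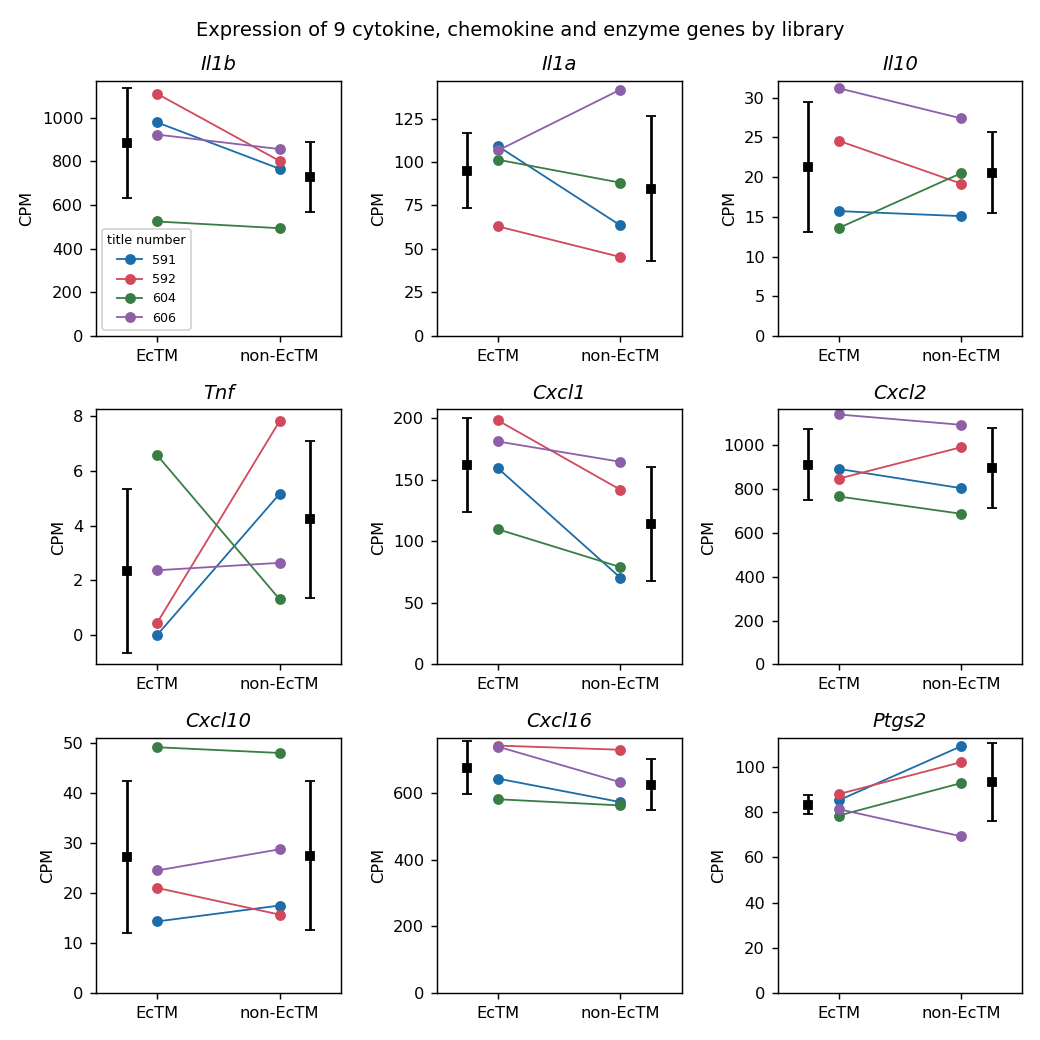
Normalised expression (CPM, linear axis) of 9 genes in 4 EcTM libraries (left) and 4 non-EcTM libraries (right), with lines joining equal numbers and group means ± SD (n = 4) as black squares. Il1b, Cxcl1 and Cxcl16 slope down to the right in every pair, while the groups overlap in all panels and E604 and N604 are lowest for Il1b and highest for Cxcl10.

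Set against all genes, 0 of the 8 tested genes passed the adjusted threshold of 0.05, where the share was 0.013% of the 7667 genes tested, or 1 gene, the integrin gene Itga9. DESeq2 and limma-voom with the same block also called 0 of the 8, although DESeq2 gave no adjusted p for Il10 and Cxcl10. At an unadjusted p under 0.05 there were 2 of 8, Il1b and Cxcl1, both higher in EcTM, beside 2.77% of all genes in that direction; 0 were lower, beside 2.63%. Among the 4679 genes at least as abundant as the lowest tested gene of the set, 6.48% were under that p in either direction. EcTM was higher in 4 of 4 pairs for 3 of 8 genes, beside 7.26% of all genes, and lower in 4 of 4 for 0, beside 6.93%. In 0 of the 8 did the groups stand clear of each other, where 2.7% of all genes did. The 10 genes together summed to 2229 to 3226 CPM in EcTM, against 2072 to 3014 CPM in non-EcTM. The median log2 fold change of the 8 was 0.08, and that of all tested genes was -0.01. The closest approach to the threshold came from the DESeq2 fit, with adjusted p-values of 0.0551 for Il1b and 0.0670 for Cxcl1, within ranges of 0.0551 to 0.9996 and 0.0670 to 0.9996 over 14 alternatives. Over the same alternatives the log2 fold change ran from 0.19 to 0.31 for Il1b and from 0.33 to 0.70 for Cxcl1.

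**Figure D2:**
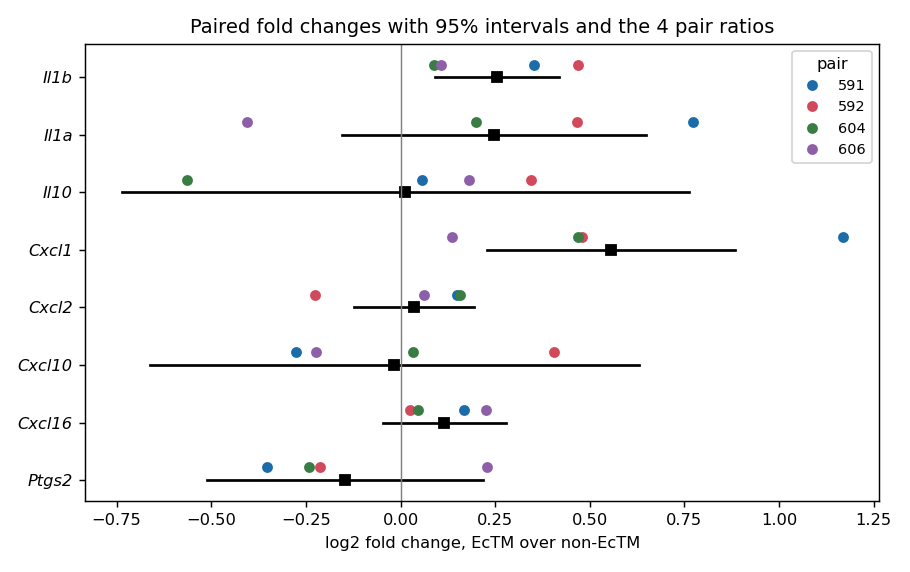
Log2 fold change of EcTM over non-EcTM for the 8 tested genes (black squares, paired edgeR fit) with 95% intervals (lines) and the log2 CPM ratio of each pair (coloured points). The intervals of Il1b and Cxcl1 lie above 0 and those of the other genes include 0, and 0 genes passed after adjustment over 7667 genes.

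More of the genes were called between the 4 numbers than between the groups. In the same model, a quasi-likelihood test of the number terms, added after the data were seen, called 3 of the 8 genes, beside 3.04% of all genes tested and 4.45% of the 4679 genes at or above the mean level of the lowest tested gene of the set. Il1b averaged 872, 956, 509 and 890 CPM in the E591/N591, E592/N592, E604/N604 and E606/N606 pairs, a 1.88-fold span with an adjusted p of 3.57e-05. Cxcl2 averaged 847, 918, 726 and 1115 CPM in the same order, with an adjusted p of 0.00461. Cxcl1 averaged 115, 170, 94.3 and 173 CPM, with an adjusted p of 0.0287.

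Il1b, Cxcl2 and Cxcl1 were thus all lowest in E604/N604. Il1a was lowest in E592/N592, at 54.2 CPM, and highest in E606/N606, at 124 CPM, with an adjusted p of 0.0579. Cxcl10 had the widest span, 48.6 CPM in E604/N604 and 15.9 CPM in E591/N591, 3.06-fold, with an adjusted p of 0.104, and did not pass. Differences within a number made up 4.68% of the squared deviations of Cxcl10, 11.2% of those of Cxcl2 and 15.1% of those of Il1b on the log2 CPM scale. The share was 19.7% for Il10, 20.1% for Cxcl16, 25.7% for Il1a, 42.9% for Cxcl1 and 46.2% for Ptgs2, where the median over all tested genes was 51.9%. Cxcl16, Il10 and Ptgs2 did not pass, with adjusted p-values of 0.217, 0.777 and 0.870.

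Several of these calls were lost when 1 number was left out. Without E604/N604 Il1b had an adjusted p of 0.900, and 1 of 8 genes passed, Il1a at 0.0492; without each of the other numbers Il1b had 4.59e-05 to 1.78e-04. Cxcl2 was lost without E604/N604 or without E606/N606, at 0.112 and 0.334. Cxcl1 passed without E591/N591 alone, at 0.0137, and reached 0.0980 to 0.243 without each of the others. With all libraries, Il1b, Cxcl1 and Cxcl2 were called in 8 of 8 other settings. Il1a was called in 5 of 8, with adjusted p-values of 0.00448 to 0.0661, and Cxcl10 and Cxcl16 by DESeq2 alone, at 0.0142 and 0.0201. What a number stands for is not given; E592 and N592 also differ in sex from the rest, and number and sex cannot be told apart for them.

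**Figure D3:**
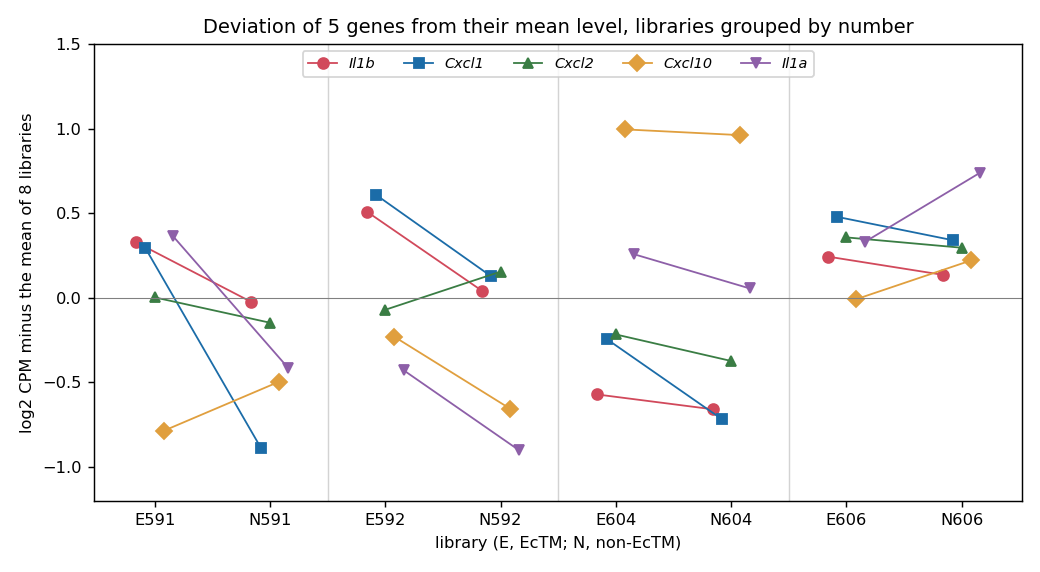
Log2 CPM of Il1b, Cxcl1, Cxcl2, Cxcl10 and Il1a minus each gene's mean over 8 libraries, with the EcTM library left of the non-EcTM library of the same number and joined to it. E604 and N604 are below the mean for Il1b, Cxcl1 and Cxcl2 and above it for Cxcl10.

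Levels of different genes were compared per kilobase of the longest coding GENCODE transcript. On this scale Il1b led with 652 ± 186 CPM per kb in EcTM and 538 ± 119 in non-EcTM (SD, n = 4 each). Cxcl2 followed at 489 ± 86.6 CPM per kb in EcTM, against 480 ± 98.0 in non-EcTM, and Il1b was above it in 6 of 8 libraries, so these 2 do not separate in every library. Before division by length Cxcl2 was the higher, with a mean over 8 libraries of 901 CPM, against 807 CPM for Il1b. Their order thus depends on the transcript lengths used, and other transcripts were not tried. Cxcl16, Cxcl1 and Il1a came next, with means over 8 libraries of 241, 145 and 45.5 CPM per kb, each above the next in 8 of 8 libraries. Cxcl10, Ptgs2 and Il10 lay close together at 20.2, 19.8 and 15.96 CPM per kb; Cxcl10 was above Ptgs2 in 3 of 8 libraries and Ptgs2 above Il10 in 6 of 8. Tnf, at 2.01 CPM per kb, and Il6, at 0.0352, were lowest. Both have 2 curated transcripts, and whether this lowers their counts was not tested.

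Genes with a pattern like that of Il1b were sought among 3801 genes whose log2 CPM averaged 5 or more, by the root mean square difference of the deviations from each gene's own mean log2 CPM over the 8 libraries. The 5 closest were Fosl2, Rgs1, Spg21, Zdhhc14 and Myo1e, at 0.11, 0.15, 0.17, 0.18 and 0.18, where the median over the genes compared was 0.45. In the quasi-likelihood test of the number terms Fosl2 had an adjusted p of 3.10e-05. The others did not pass, at 0.158 to 0.356. A small difference can also arise where both genes vary little. Fosl2, which encodes a transcription factor of the AP-1 family, stood at 1334, 1431, 675 and 1200 CPM in E591, E592, E604 and E606, and at 1107, 1223, 764 and 1068 CPM in N591, N592, N604 and N606. Because Fosl2 was chosen for its likeness to Il1b, its low E604 and N604 follow from that choice. Among the tested genes of the set the closest pair was Cxcl2 and Cxcl16, at 0.17, and the farthest was Il1b and Cxcl10, at 0.96; Cxcl1 and Cxcl2 were at 0.39 and Il1a and Il1b at 0.66.

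Genes that make, sense or restrain these signals gave no calls in the paired edgeR fit. In 8 lists 0 tested members passed: 13 of 18 genes of the interleukin 1 pathway were tested, 7 of 12 of the TNF pathway, 7 of 13 of the interleukin 6 and 10 pathways, 8 of 17 other CXC ligands and receptors, 11 of 16 of the prostanoid pathway, 8 of 15 NF-kB subunits and inhibitors, 7 of 8 regulators of cytokine mRNA decay and 19 of 22 immediate-early genes. Their median log2 fold changes were -0.06, 0.09, 0.06, -0.02, 0.00, 0.10, 0.06 and 0.07 in that order, beside -0.01 for all genes. At an unadjusted p under 0.05 there were 5 immediate-early genes and 1 gene each in the interleukin 1, interleukin 6 and 10, NF-kB and mRNA decay lists, all higher in EcTM, and 0 in the other lists, beside 2.77% of all genes in that direction.

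In the interleukin 1 pathway Nlrp3, the sensor of an inflammasome, stood at 1177 ± 165 CPM in EcTM, against 1063 ± 171 CPM in non-EcTM (SD, n = 4 each), with a log2 fold change of 0.15 ± 0.07 and an adjusted p of 0.907. The pore-forming effector Gsdmd had -0.37 ± 0.21 and the kinase Irak4 0.20 ± 0.14. In the TNF pathway the adaptor Tradd had 0.62 ± 0.43, with 0.33 to 1.02 over the left-out pairs, the receptor Tnfrsf1a 0.12 ± 0.09 and the ubiquitin ligase Birc3 -0.09 ± 0.10. Among interleukin 6 and 10 genes the feedback inhibitor Socs3 had 0.16 ± 0.06, the kinase Jak1 0.14 ± 0.07 and the NF-kB cofactor Bcl3 0.20 ± 0.11. None of the genes with a fold change given here passed. Il6ra and Stat3 were at 0 counts in all libraries, and whether this reflects absent transcripts or the counting was not tested.

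Of the other CXC chemokines, Cxcl3, a neutrophil chemokine of the same family as Cxcl1 and Cxcl2, was at 13.6 ± 7.50 CPM in EcTM, against 5.40 ± 2.83 CPM in non-EcTM (SD, n = 4 each) and higher in 4 of 4 pairs, at 1.25 ± 0.68 (SE) on the log2 scale, which did not pass (adjusted p 0.931) and was 0.62 without pair E591/N591. Platelet factor 4, Pf4, was at 487 ± 50.8 CPM in EcTM, against 547 ± 53.5 CPM in non-EcTM, with -0.17 ± 0.09, and Cxcl14 had 0.41 ± 0.51, or 0.098 without pair E604/N604. In the prostanoid list thromboxane synthase Tbxas1 had -0.16 ± 0.11, the phospholipase Pla2g4a -1.04 ± 0.80, or -0.28 without pair E592/N592, and the prostaglandin-degrading enzyme Hpgd 0.10 ± 0.08. The NF-kB subunit genes Rel and Rela had 0.27 ± 0.11 and 0.14 ± 0.09, and the inhibitor Tnip1 had 1.30 ± 1.21, with 0.10 to 2.62 over the left-out pairs.

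The decay factor Zfp36 (tristetraprolin), which binds the nonamer shown above, was at 7034 ± 478 CPM in EcTM, against 6509 ± 471 CPM in non-EcTM (SD, n = 4 each), higher in 4 of 4 pairs, with a log2 fold change of 0.11 ± 0.04 and an adjusted p of 0.751; limma-voom called it at 0.00186. Zc3h12a, an RNase that cleaves cytokine transcripts, had 0.14 ± 0.11 and Zfp36l1 had 0.06 ± 0.05. Immediate-early genes, which tissue dissociation can induce, had a median log2 fold change of 0.07, with 14 of 19 above 0, beside 48.5% of all tested genes. Egr1 was at 10875 ± 1084 CPM in EcTM, against 9647 ± 1005 CPM in non-EcTM, with 0.17 ± 0.04 and an adjusted p of 0.144. Nr4a1 had 0.22 ± 0.06 and 0.434 and Btg2 0.14 ± 0.05 and 0.800. DESeq2 and limma-voom with the block called both Egr1 and Nr4a1. The summed level of the 22 immediate-early genes was 50992 to 65131 CPM in EcTM, against 47950 to 60861 CPM in non-EcTM, and between numbers 9 of 19 passed, beside 3.04% of all genes. Their part in the differences of Il1b and Cxcl1 was not tested.

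**Figure D4:**
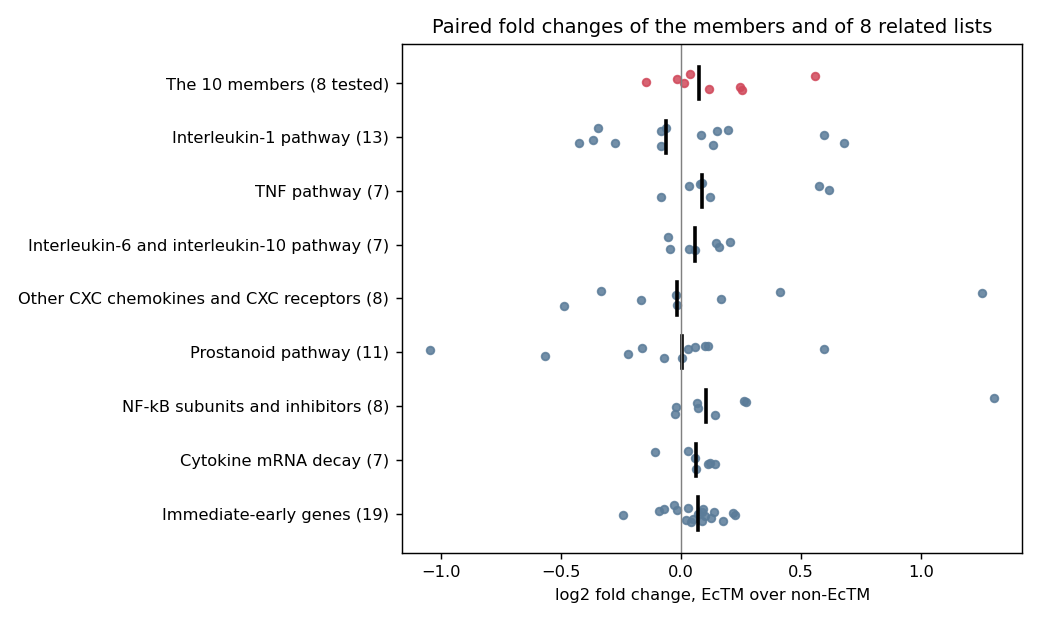
Log2 fold change of EcTM over non-EcTM in the paired edgeR fit for the 8 tested genes of the set (red) and the tested members of 8 related lists (blue), with black bars at the medians and the number tested in brackets. The medians lie between -0.06 and 0.10, and 0 of the genes shown passed after adjustment over all genes.

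Neutrophils, monocytes and vessel or stromal cells can also make these cytokines, so their markers were read in the same libraries. Neutrophil markers were at or near 0: S100a9, Ly6g, Camp, Ltf and Elane had 0 counts in all 8 libraries, 0 of 11 were tested, and their sum was 0 to 3.51 CPM in EcTM, against 0 to 7.26 CPM in non-EcTM. Monocyte markers summed to 21.3 to 225 CPM in EcTM, against 43.9 to 204 CPM in non-EcTM, with F13a1 and Ccr2 the highest. F13a1 was at 0 in E591 and E606 and at 2 counts in N606, against 264 to 387 counts in the other libraries; Ccr2 differed by -0.56 on the log2 scale and did not pass (adjusted p 0.897). Dendritic cell markers summed to 9.08 to 23.7 CPM in EcTM, against 8.25 to 15.3 CPM in non-EcTM, and 5 of 6 mast cell markers were at 0. The list of T, NK and B cell markers summed to 26.4 to 67.1 CPM in EcTM, against 38.6 to 58.4 CPM in non-EcTM. This sum was mainly Cd4, with a mean of 45.8 CPM over all libraries, while the next highest gene, Cd79a, averaged 0.76 CPM.

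Endothelial markers were uneven. They summed to 338, 50.5, 32.5 and 234 CPM in the 4 EcTM libraries in the order E591, E592, E604, E606, and to 899, 87.7, 148 and 119 CPM in N591, N592, N604 and N606, and all 5 tested members had log2 fold changes below 0, with a median of -1.10. N591 was the highest library, E591 the next and E604 the lowest. At an unadjusted p under 0.05 in the paired edgeR fit 3 of the 5 were lower in EcTM, beside 2.63% of all genes. At that p 0 were higher, and 0 passed the adjusted threshold. Between numbers 4 of the 5 passed, beside 3.04% of all genes. Pecam1, Tek, Emcn and Npr3 had 0 counts in all, and whether this reflects absent transcripts or the counting was not tested. Fibroblast markers summed to 25.3 to 131 CPM in EcTM, against 27.0 to 203 CPM in non-EcTM, mural markers to 80.6 to 114 CPM in EcTM, against 89.2 to 290 CPM in non-EcTM, and cardiomyocyte markers to 75.4 to 135 CPM in EcTM, against 90.0 to 159 CPM in non-EcTM. Without N591, in an unpaired fit, Il1b and Cxcl1 had log2 fold changes of 0.30 and 0.33 and 0 of the 8 genes passed. In these bulk libraries fewer cells of a type and less RNA per cell cannot be told apart.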

How the data were processed

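Total RNA of sorted cells was made, per the labels, into stranded libraries with a kit meant for picogram amounts. The submitters' processing notes name bcl2fastq 2.17, TopHat, DESeq2, R 3.2 and mm10, while the sources used here name no counting program, annotation or strand setting. The deposited table holds raw read counts for 24516 genes in 8 libraries, used as deposited, and log2 values under a CPM header, which the authors made and which were not used here.

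Groups came from the labels. Pairing by title number was checked: after removal of group means, libraries of equal number had correlations across genes of 0.12 to 0.19, above the minimum of 0.1, and others -0.13 to 0.05. The main test was edgeR 4.0.16 (R 4.3.3) quasi-likelihood with TMM factors, filterByExpr (7667 genes, 99.3% of counts) and the number as a block, with Benjamini-Hochberg adjustment over all genes. Log2 CPM used a prior count of 2. SEs are the log2 fold change over the root of F. DESeq2 1.42.0 and limma-voom (limma 3.58.1) were alternatives. Fits were tested on simulated data. Figures used matplotlib 3.10.9 in Python 3.11.15. The 10 genes and the lists were chosen with earlier results of these data known. From each list up to 3 tested genes with the smallest p were named, from marker lists the 3 highest and those at 0, and for Il1b the 5 most alike genes; other names were chosen after their values were seen. Sequences are from RefSeq (GRCm38.p6) and GENCODE M21. Genes were matched to RefSeq by Entrez number (24447 of 24516).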

Additional observations from a re-analysis of the deposited data

Results flagged for a closer look

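Il1a in E592 was at 63.0 CPM and stood far from the other EcTM libraries, at 101 to 109 CPM. It was found among 19 groups of 4 libraries, where chance alone flags about 1 group in 20. Il6 in N606 was at 0.660 CPM, from 2 counts, against 0 in the other non-EcTM libraries. With the other 3 libraries at 0, any count in 1 library would be marked in this way, so this carries no information beyond the 2 counts.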

How the results depend on the processing

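None of the 8 tested genes of the set was called between EcTM and non-EcTM in any of the alternatives run, and 103 of the 111 values of these genes kept their direction and side of the threshold. Il10 and Cxcl10 had no adjusted p in the DESeq2 fit between groups and were counted there as not called. The sign turned for Cxcl2 without E591/N591 (-0.0023), without E604/N604 (-0.0067) and in the unpaired fit without N591 (-0.020), within -0.0067 to 0.12 over the left-out pairs. It turned for Cxcl10 without E591/N591 (0.064) and without E606/N606 (0.05), within a range of -0.15 to 0.064 over the left-out pairs. It turned for Il10 without E592/N592 (-0.10), without E606/N606 (-0.06) and in the unpaired fit without N591 (-0.071), within -0.10 to 0.20 over the left-out pairs, and for Birc3 without E604/N604 (0.0019), within -0.14 to 0.0019.

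Of all genes, 1 was called with the replicate block, and 0 without the block, with robust dispersions, with genes of 1 curated transcript alone and in the unpaired fit without N591. DESeq2 with the block called 26, limma-voom 19, the fit with no filter 10, and leaving out each pair 1 to 2. Pathway list members called were 0 in the paired edgeR fit, 2 by DESeq2 (Egr1, Nr4a1), 3 by limma-voom (with Zfp36) and 1 with no filter (Egr1); marker list members were 0, against 1 by DESeq2 (Cd14), 2 by limma-voom (Cd14, Ptprb), 2 with no filter (Ptprb, Kdr) and 0 to 1 leaving out each pair. Between numbers 233 genes were called, against 442 in a DESeq2 likelihood ratio test, 350 with no filter and 146 to 179 without each number; of the set, 3 were called, against 6 by DESeq2, 4 by limma-voom, with no filter, with robust dispersions and among genes of 1 curated transcript, and 1 to 4 without each number. The cause was not tested. Low counts limit Tnf, Il6, Il10 and Cxcl10.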
